A study of Mus musculus with 18 samples.

Results

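The genes of the cytosolic ribosomal proteins were followed through 18 individual mouse embryos at the 2-cell stage. They were taken by symbol from the platform annotation: Rpl or Rps with a number, plus Rplp0, Rplp1, Rplp2 and Rpsa, without pseudogene symbols and without the Rps6k kinases. Among the probe sets that name a gene alone, the one brightest on average over the 18 embryos was read. The rule gave 61 genes of 19935 named on the array, 38 of the large subunit and 23 of the small subunit. Of these, 54 encode standard proteins of the ribosome and 7 are paralogs (Rpl3l, Rpl7l1, Rpl10l, Rpl32l, Rpl39l, Rps4l and Rps27l). Of 77 standard proteins, 16 were read only by probe sets that name several genes, Rpl11, Rpl3 and Rps27 among them, and 7, Rps27a among them, had no entry under their symbols in the annotation used here. These 23 genes were not analysed here.

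Females of the wild-type inbred strain 129SVE were mated naturally with wild-type males (WT) or with Parg(110)-/- males, which carry a deletion of exons 2 and 3 of Parg, the gene of poly(ADP-ribose) glycohydrolase. The embryos of the mutant fathers were heterozygous, Parg(110)-/+, so that an effect of the father's sperm and an effect of the embryo's own genotype cannot be told apart. There were 9 WT embryos from 3 fathers (WT1, WT2 and WT3) and 9 Parg(110)-/+ embryos from 3 fathers (PargA, PargB and PargC), with 3 embryos of each father, and PargB-1 is embryo 1 of father PargB. Embryos of a father share that father, so that the fathers are the independent units of genotype. The amplified cDNA of a single embryo was hybridised to an array, and the values are log2 levels of probe sets after robust multichip averaging.

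A ribosome is made of a small subunit, which holds the mRNA and reads its codons, and a large subunit, which joins the amino acids. Each subunit is an RNA core to which many small basic proteins are added in the nucleolus, and the cell makes these proteins in near equal numbers. Their mRNAs are among the most abundant of a cell, and in most of them a run of pyrimidines at the very 5′ end (the 5′ terminal oligopyrimidine, or TOP, tract) ties translation to mTOR signalling. The oocyte stores ribosomes and ribosomal protein mRNA, and at the 2-cell stage of the mouse the stores are being lost while the embryonic genome starts to make its own.

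Some sequence features around the start sites, which the symbol rule did not use, were commoner among the members than among all genes. RefSeq promoter sequences of build GRCm38.p6 were held for 49 of the 61 members, 8 of them with several starts. The 30 bases around the annotated start, 15 on each side, are shown for 9 members: Rplp2, Rps18, Rps6 and Rpl38 because they carry a run of at least 10 pyrimidines, and Rpl9, Rpl10, Rps3, Rps3a1 and Rps15, on which later results turn, because they do not. Capitals mark the longest run of C and T where it has 10 or more bases.
Rplp2 (chr7:141447636-141447665, plus strand): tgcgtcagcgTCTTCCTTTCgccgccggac
Rps18 (chr17:33955651-33955680, minus strand): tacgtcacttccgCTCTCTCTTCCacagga
Rps6 (chr4:86857353-86857382, minus strand): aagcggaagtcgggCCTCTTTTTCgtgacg
Rpl38 (chr11:114668565-114668594, plus strand): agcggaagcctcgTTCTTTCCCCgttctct
Rpl9 (chr5:65391417-65391446, minus strand): acgcagggccctgacggattacaagaacgt
Rpl10 (chrX:74270801-74270830, plus strand): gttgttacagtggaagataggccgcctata
Rps3 (chr7:99483695-99483724, minus strand): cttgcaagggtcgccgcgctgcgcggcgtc
Rps3a1 (chr3:86142654-86142683, minus strand): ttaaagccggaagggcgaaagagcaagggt
Rps15 (chr10:80292416-80292445, plus strand): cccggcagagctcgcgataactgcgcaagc
A run of 10 or more pyrimidines lay in this window in 14 of 49 members (28.6%), 10 of 30 in the large and 4 of 19 in the small subunit, against 6.25% of all 27025 genes in the table. An annotated start can lie some bases away from the start used, so a window without the run says only that these letters are not in it. Shorter runs of pyrimidines were not counted. In the 300 bases from 250 before to 50 after the start, the ETS-type motif CCGGAAG was found on either strand in 38.8% of members and in 9.93% of all genes. The GC-box motif GGGCGG was found in 59.2% of members and 38.2% of all genes, and TATAAA in 12.2% and 15.7%. A match is a description of the sequence, and binding was not measured.

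All 61 members were bright, which here means a mean at or above 6.47, the median of all 28815 probe set means. This level does not divide expressed genes from background. A spermatid marker reached a median of 7.11, while the paralogs Rpl3l and Rpl32l and the standard members Rpl30 and Rpl12 had means between 6.74 and 6.89. Member means ran from 6.74 for Rpl3l, a paralog of Rpl3 known from striated muscle, to 12.82 for Rpl41, the smallest protein of the ribosome, and 42 of 61 lay over log2 11. Levels of different probe sets depend on their probes and give no order of abundance. The probe sets that name a member alone numbered 216. Where a gene had further bright ones, 155 could be compared with the one used, and they followed it over the embryos with a median Pearson r of 0.966, above 0.5 for 149 of them. The exceptions included the other probe set of Rplp0, with an r of -0.009. The annotation gives no positions, so the gene itself and processed copies of it with the same sequence cannot be told apart. Rps12 and Rpl23a had the most, with 13 probe sets each that name them alone.

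Beside the members, the embryos carried the transcripts of their stage. Of 9 measured markers of the 2-cell stage 8 were bright, as were 18 of 19 maternal oocyte markers, while 2 of 10 cumulus and oviduct markers, 1 of 7 blood markers and 3 of 10 spermatid markers were. Parg itself ran from 9.55 to 10.89 in WT (median 10.62) and from 9.37 to 10.83 in Parg(110)-/+ embryos (median 10.26). Its difference was -0.32 ± 0.20 (SE, limma, adjusted p = 0.571), and since the embryos kept the maternal allele and the signal cannot be split by exon, it does not check the labels. Array medians lay between 6.34 and 6.53, with a mean of 6.42 in WT (SD 0.05) and 6.48 in Parg(110)-/+ embryos (SD 0.03). Embryo PargB-1 stood apart from the rest: against the 9 WT embryos 625 probe sets passed the test in it, while the other 8 Parg(110)-/+ embryos had 174 to 243, and single WT embryos, tested against the remaining 8, had 138 to 330. Most results that rest on PargB-1 are given with and without it, while the SDs of members include it.

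The spread from embryo to embryo differed widely between members. The median SD over the 18 embryos was 0.26 for the members, 0.26 for the large and 0.26 for the small subunit. It was 0.20 over all 28815 probe sets, 0.32 over all bright probe sets and 0.20 over the probe sets above log2 11, against 0.23 for the 42 members above that level. Rps12, Rps6 and Rpl23 were the steadiest, and their levels were high, with means of 12.68, 12.58 and 12.33. The median SD of members was 0.43 below log2 11, 0.28 between 11 and 12, and 0.16 from 12 up. The part of the level in their steadiness was not tested. Rps12, a protein of the small subunit's head, had an SD of 0.08 and ran from 12.56 to 12.83 in WT and from 12.62 to 12.82 in Parg(110)-/+ embryos. Rps6, the small subunit protein that S6 kinases phosphorylate, ran from 12.47 to 12.80 in WT and from 12.40 to 12.67 in Parg(110)-/+ embryos (SD 0.09). Rpl23, a protein of the interface between the subunits, had an SD of 0.10. In Rps12 and Rpl23 all 9 Parg(110)-/+ embryos lay within the WT range, and in Rps6 7 of 9 did.

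The largest SDs belonged to Rpl10l, Rpl14 and Rpl39l. Rpl10l, the autosomal paralog of the X-linked Rpl10 that is known from spermatogenesis, ran from 6.95 to 9.83 in WT (median 8.33) and from 5.63 to 10.03 in Parg(110)-/+ embryos (median 8.34), with an SD of 1.00. Rpl14, a standard protein of the large subunit, ran from 7.86 to 10.12 in WT and from 6.92 to 9.24 in Parg(110)-/+ embryos (SD 0.72). Rpl39l, the paralog of Rpl39 known from the testis, ran from 9.26 to 11.27 in WT and from 9.04 to 11.12 in Parg(110)-/+ embryos (SD 0.69). The groups overlapped in each of these genes. The lowest embryo was PargB-1 for Rpl10l and Rpl14 and PargC-3 for Rpl39l.

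The members moved together over the embryos, and the subunits moved as one. The score of an embryo is the mean over members of the log2 value minus that member's mean over all 18 embryos, so that 0 is the average embryo. For the large subunit the score ran from -0.23 to 0.27 in WT (median 0.01) and from -0.54 to 0.21 in Parg(110)-/+ embryos (median 0.06). For the small subunit it ran from -0.15 to 0.24 in WT (median 0.02) and from -0.43 to 0.18 in Parg(110)-/+ embryos (median 0.03). PargB-1 was lowest for both subunits and WT3-1 highest for both. Over the 18 embryos the scores of the subunits had a Pearson r of 0.928 and a Spearman rho of 0.897, with r = 0.893 among the 9 WT and 0.944 among the 9 Parg(110)-/+ embryos. Without PargB-1 r was 0.872, and without PargB-1 and WT3-1, the embryos farthest from the median, it was 0.839. Among Parg(110)-/+ embryos r was 0.724 without PargB-1 and PargC-3, and among WT embryos 0.761 without WT2-1 and WT3-1. These correlations are descriptions: the points share the normalisation of their arrays and an embryo's cDNA.

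**Figure D1:**
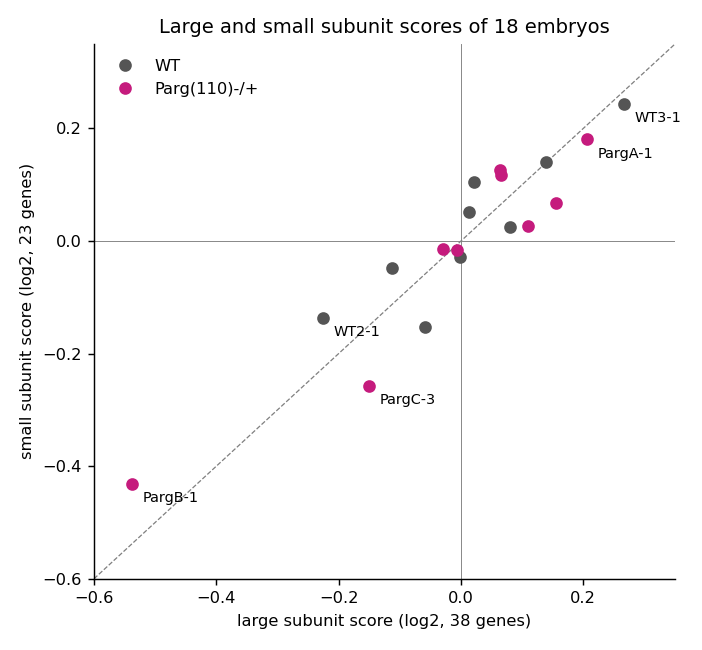
Large subunit score (38 genes) on the x axis against small subunit score (23 genes) on the y axis, both in log2 units as the mean difference from the average embryo, 1 point per embryo. The dashed line marks equal scores, and the 18 points lie along it from PargB-1 (-0.54 and -0.43) to WT3-1 (0.27 and 0.24).

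The difference between the subunits was small in every embryo. The large subunit score minus the small subunit score lay between -0.09 and 0.09 in WT (SD 0.06) and between -0.11 in PargB-1 and 0.11 in PargC-3 among Parg(110)-/+ embryos (SD 0.07). Its mean was -0.01 in WT and 0.01 in Parg(110)-/+ embryos, a difference of 0.02 that was smaller than the spread between WT embryos. PargC-3, with the highest value, was low in the small subunit (-0.26) more than in the large (-0.15), and 21 of 23 small and 26 of 38 large subunit members lay below their means there. WT2-1 was at -0.23 for the large and -0.14 for the small subunit, with 33 of 38 large and 20 of 23 small subunit members below their means. PargA-1 was high in both, at 0.21 and 0.18.

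Between single members the coupling was looser. The median Pearson r over 18 embryos was 0.298 for pairs within the large subunit, 0.440 within the small subunit and 0.370 between them, against 0.014 for all pairs of bright probe sets. Without PargB-1 these medians were 0.219, 0.340 and 0.276, against 0.015. Bright probe sets reach down to 6.47, while 42 of 61 members lay over log2 11. Pairs of other probe sets at the level of the members were not compared. A member's correlation with the mean of the other 60 had a median of 0.611 (0.582 in the large and 0.676 in the small subunit) and exceeded 0.5 in 43 of 61 members. Rps18 (0.865), Rps15 (0.843) and Rps6 (0.842) had the highest values. Without PargB-1 the median was 0.523, and 35 members exceeded 0.5. The highest values were then those of Rpl23 (0.854), Rps6 (0.809) and Rps15 (0.784), and Rps18 was at 0.75.

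Some members did not follow. Rpl12, a protein at the base of the large subunit's stalk, had an r of -0.344 with the rest, Rpl29 had -0.205 and Rps27l -0.106. Without PargB-1 these were -0.09, 0.195 and -0.05. Rpl12 was among the dimmest members, with a mean of 6.89. Among the 7 paralogs the median was 0.416, and 0.106 without PargB-1. The 14 members with the pyrimidine run and the 35 without it had medians of 0.597 and 0.627.

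**Figure D2:**
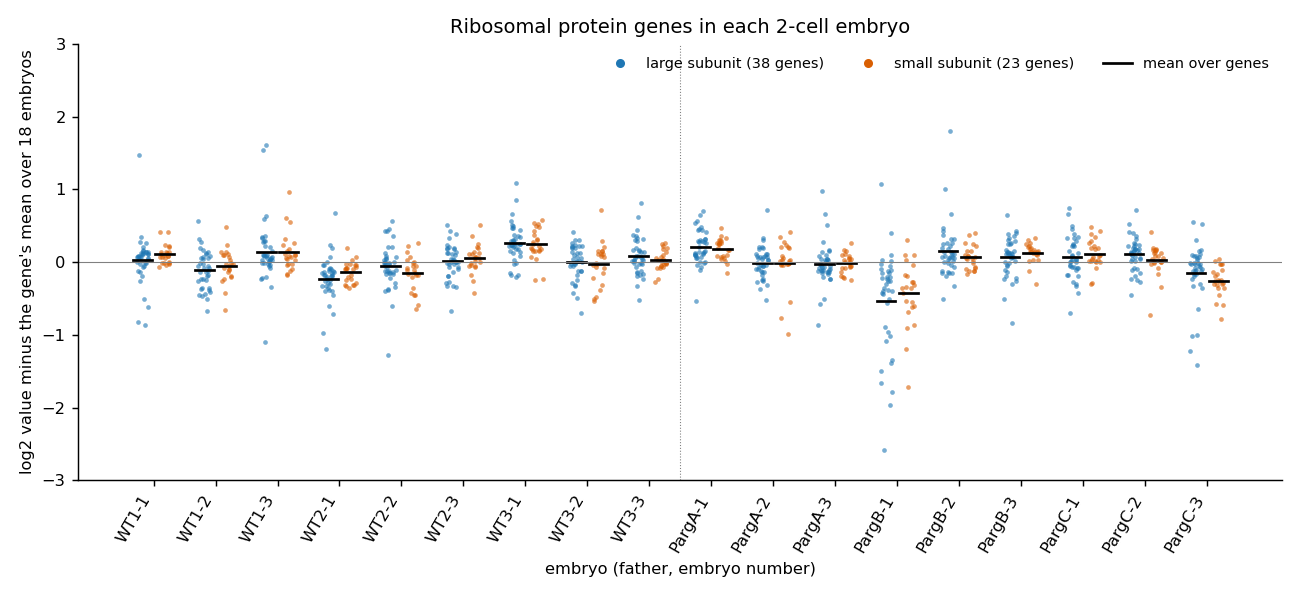
Log2 value minus the gene's mean over 18 embryos (y axis) for each of the 61 members in each embryo (x axis), large subunit in blue and small subunit in orange, with black bars at the mean over genes and the dotted line between WT and Parg(110)-/+ embryos. The means lie between -0.26 and 0.27 in every embryo except PargB-1, where they are -0.54 and -0.43.

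Whether offspring of Parg(110)-/- fathers differed in these genes was asked over 9 against 9 embryos, and no member passed the test. At an adjusted p under 0.1 (limma, Benjamini-Hochberg over all probe sets), 0 of 61 members and 0.0% of the 28815 probe sets passed. At an unadjusted p under 0.05, 0 members were lower, where 1.51% of all probe sets were, and 2 members (3.28%) were higher, where 8.96% of all probe sets were. Of the 61 members 35 lay lower and 26 higher in Parg(110)-/+ embryos, with a median difference of -0.03 in all members, in the large and in the small subunit alike. The median over all probe sets was 0.05, with 32.9% of them lower, and over bright ones 0.04, with 41.4% lower. The study named ribosomal protein genes from these same embryos, so this direction is not independent of that choice.

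The direction of the members as a group rested on single embryos and on the scaling. Without PargB-1, 21 of 61 members were lower and the median difference was 0.05. Without WT3-1, 27 were lower (median 0.02), and without the embryos of father WT3, 24 were (median 0.02). With the arrays set to equal medians, 50 members (82.0%, against 57.4%) were lower, with a median of -0.08. An embryo's array carries the amplified RNA of the whole embryo. After quantile normalisation the values are relative to the other genes of the array, so they give no amount of RNA per blastomere.

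**Figure D3:**
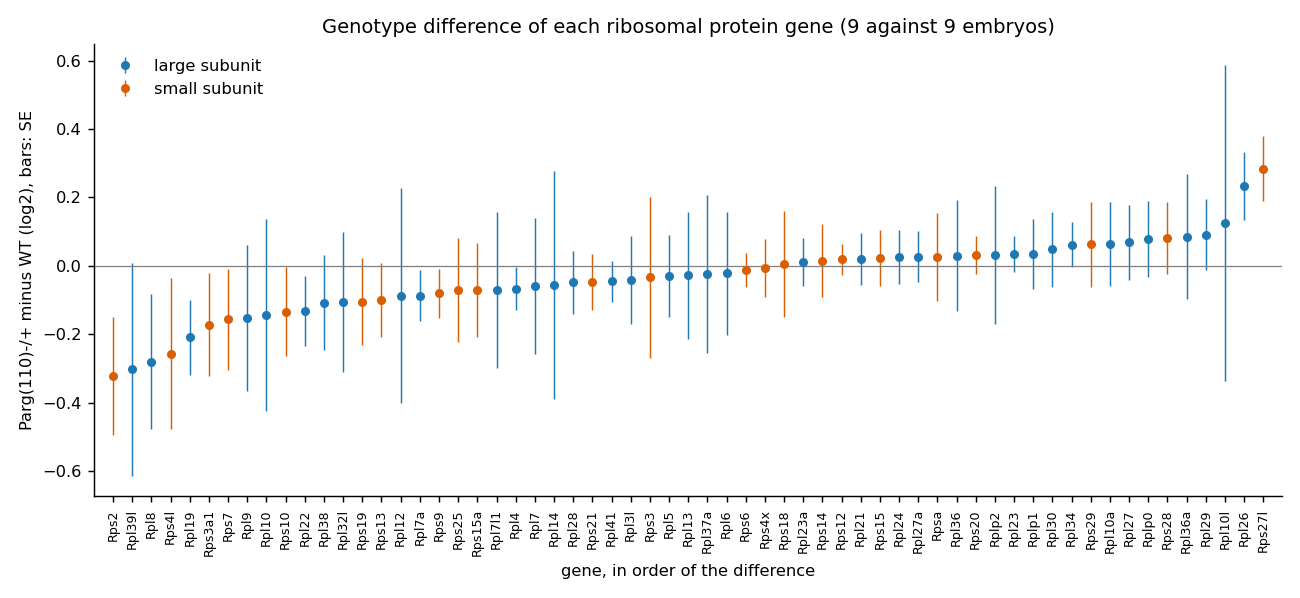
Difference between 9 Parg(110)-/+ and 9 WT embryos in log2 units (y axis) for each of the 61 members in order of the difference (x axis), with bars of 1 SE, large subunit in blue and small subunit in orange. The points run from -0.32 for Rps2 to 0.28 for Rps27l, and none passed the test.

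The 8 members with the smallest p were Rps27l, Rpl26, Rpl19, Rps2, Rpl8, Rpl22, Rpl7a and Rps4l. Rps27l, a paralog of Rps27 known as a p53 target, ran from 10.76 to 11.44 in WT (median 11.18) and from 11.17 to 11.68 in Parg(110)-/+ embryos (median 11.46). Its difference was 0.28 ± 0.10 (SE, limma, adjusted p = 0.371). The groups overlapped, with 5 of 9 WT embryos inside the range of the Parg(110)-/+ embryos. Rpl26, a large subunit protein known to bind p53 mRNA, ran from 11.14 to 11.74 in WT (median 11.35) and from 11.25 to 11.88 in Parg(110)-/+ embryos (median 11.60), a difference of 0.23 ± 0.10 (SE, adjusted p = 0.450). Here too the groups overlapped, with WT3-1 above most Parg(110)-/+ embryos.

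The other 6 were lower in Parg(110)-/+ embryos without passing the test. Rps2, a protein at the mRNA entry of the small subunit, ran from 11.13 to 11.89 in WT (median 11.52) and from 10.59 to 11.66 in Parg(110)-/+ embryos (median 11.44), and differed by -0.32 ± 0.17 (SE, adjusted p = 0.509). Rpl19, which reaches from the large to the small subunit, ran from 10.91 to 11.71 in WT and from 10.59 to 11.44 in Parg(110)-/+ embryos, and differed by -0.21 ± 0.11 (SE, adjusted p = 0.502). Rpl8, which lies near the peptidyl transferase centre, differed by -0.28 ± 0.20, Rps4l, a paralog of Rps4x, by -0.26 ± 0.22, Rpl22 by -0.13 ± 0.10 and Rpl7a by -0.09 ± 0.07 (SE, adjusted p 0.603 to 0.669). The groups overlapped in each of them. For Rpl7a the mean of its 3 probe sets gave a difference of 0.02 in place of -0.09. The same mean gave -0.13 in place of -0.32 for Rps2 and -0.17 in place of -0.26 for Rps4l. For Rpl19 it gave -0.25 in place of -0.21. The other 2 bright probe sets of Rps2 had an r of 0.421 and 0.718 with the one used.

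The members with roles outside or at the edge of the ribosome did not pass the test either. The stalk of the large subunit, which calls translation factors to the ribosome, is built from Rplp0, Rplp1 and Rplp2, and these differed by 0.08 ± 0.11, 0.03 ± 0.10 and 0.03 ± 0.20 (SE, adjusted p 0.801 to 0.963). Rplp1 ran from 11.58 to 12.14 in WT and from 11.66 to 12.35 in Parg(110)-/+ embryos. Rpl5, which carries the 5S RNA and, when free, binds Mdm2, ran from 11.22 to 12.10 in WT and from 11.32 to 11.90 in Parg(110)-/+ embryos, and differed by -0.03 ± 0.12 (SE, adjusted p = 0.940). Rpsa, also known as the laminin receptor precursor, ran from 10.91 to 11.96 in WT and from 11.06 to 11.78 in Parg(110)-/+ embryos (0.03 ± 0.13). Rps3, a protein of the mRNA entry channel that also cuts damaged DNA, differed by -0.03 ± 0.24 and Rps6 by -0.01 ± 0.05. The paralog Rpl3l ran from 6.45 to 6.95 in WT and from 6.21 to 7.23 in Parg(110)-/+ embryos, and differed by -0.04 ± 0.13. The range of the WT embryos held 7 to 9 of the 9 Parg(110)-/+ embryos in these genes, except for Rpl3l, where it held 3.

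Embryos were also compared by father, since histone retention in sperm can differ from male to male. Each of the 3 families of mutant fathers was compared with the same 9 WT embryos, so the comparisons share their controls. No member passed in any of them (limma, adjusted p under 0.1), where 0.0% of all probe sets passed for PargA, 0.0139% for PargB and 0.0104% for PargC. For PargA, 22 of 61 members were lower, with a median of 0.04. For PargB, 41 were lower with a median of -0.06, and for PargC, 34 were lower with a median of -0.01. Of all probe sets, 41.3% were lower for PargA, 32.6% for PargB and 39.3% for PargC. In the PargC family the large subunit had a median of 0.02, with 17 of 38 members lower. The small subunit had a median of -0.06, with 17 of 23 lower. Its embryos were unlike in this: 7 of 23 were lower than in WT in PargC-1, 8 in PargC-2 and 22 in PargC-3. The mean score of a father's embryos was 0.03, -0.09 and 0.10 for WT1, WT2 and WT3 and 0.05, -0.10 and -0.01 for PargA, PargB and PargC. Fathers of either genotype covered about the same range. The low mean of PargB rests on PargB-1, at -0.50, while PargB-2 was at 0.12 and PargB-3 at 0.09. In the tests between the 3 fathers of a genotype (limma's F test), no member passed, against 0.0% of all probe sets among WT and 0.00347% among Parg(110)-/- fathers.

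A large difference appeared in 1 embryo. Against the 9 WT embryos, 55 of 61 members were lower in PargB-1, with a median difference of -0.36 (-0.33 in the large and -0.37 in the small subunit), while the median of all probe sets was 0.05 and 41.2% of them were lower. At an adjusted p under 0.1 (limma), 8 members (13.1%) fell, 5 of the large and 3 of the small subunit, where 0.972% of all probe sets and 1.94% of bright probe sets fell. No member rose, where 1.2% of all probe sets rose. PargB-1 was the lowest of the 18 embryos in 30 of 61 members (49.2%), 16 of the large and 14 of the small subunit, against 5.88% of all and 9.54% of bright probe sets. It was below all 9 WT embryos in 33 members (54.1%), against 8.53% of all probe sets. The array of PargB-1 had the lowest SD of all 18 (2.04). Its mean over probe sets above log2 11, with 42 members among them, was the lowest too, at -0.10 from the average embryo. The other embryos lay between -0.03 and 0.05. The part of this in the low values was not tested. The test assumes that a lone embryo varies as WT embryos do, and PargB-2 and PargB-3, of the same father, had 22 and 15 members lower, with medians of 0.07 and 0.09.

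Rpl9, Rps3a1, Rpl10 and Rps3 fell under every alternative run. Rpl9, a protein of the factor-binding side of the large subunit, ran from 11.21 to 11.51 in WT (median 11.31) and measured 9.47 in PargB-1, a difference of -1.86 ± 0.13 (SE, adjusted p = 7.25e-05), or 3.64-fold lower. In the other 8 Parg(110)-/+ embryos it lay between 11.15 and 11.62, inside or next to the WT range. Rps3a1, a small subunit protein that meets initiation factor eIF3, ran from 11.41 to 11.90 in WT and measured 10.47 in PargB-1 (-1.29 ± 0.16, SE, adjusted p = 0.00353), or 2.44-fold lower. Rpl10, the protein that joins the large subunit last and completes it, ran from 11.02 to 11.92 in WT and measured 9.38 in PargB-1 (-2.04 ± 0.33, SE, adjusted p = 0.0149), or 4.11-fold lower. Its other 5 bright probe sets followed the one used with an r of 0.975 to 0.998. Rps3 ran from 10.08 to 11.14 in WT and measured 9.01 in PargB-1 (-1.73 ± 0.29, SE, adjusted p = 0.0186), or 3.33-fold lower. In these 4 genes PargB-1 lay alone below all other embryos.

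The other 4 passed less firmly. Rplp2, a stalk protein, ran from 9.42 to 10.23 in WT and measured 8.42 in PargB-1 (-1.33 ± 0.29, SE, limma, adjusted p = 0.0658). Rps25, a protein of the small subunit known for its part in internal initiation, ran from 11.33 to 11.83 in WT and measured 10.66 (-0.94 ± 0.21, adjusted p = 0.0725). Rpl7l1, a paralog of Rpl7, ran from 9.11 to 10.24 in WT and measured 8.12 (-1.54 ± 0.34, adjusted p = 0.0755). Rpl41 ran from 12.78 to 12.97 in WT and measured 12.44, a difference of -0.41 ± 0.09 (adjusted p = 0.0865). PargB-1 was again the lowest of all 18 embryos in each. When each WT embryo was left out in turn, the highest adjusted p was 0.11 for Rplp2, Rps25 and Rpl7l1 and 0.13 for Rpl41, and 5 members passed without WT1-1. Of the 9 such fits Rplp2 passed in 7, Rps25 in 6, Rpl7l1 in 5 and Rpl41 in 1. After a second quantile normalisation Rpl7l1 had an adjusted p of 0.143. Rpl10l had the most negative difference of all members, -2.52 ± 0.81, without passing (adjusted p = 0.254).

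**Figure D4:**
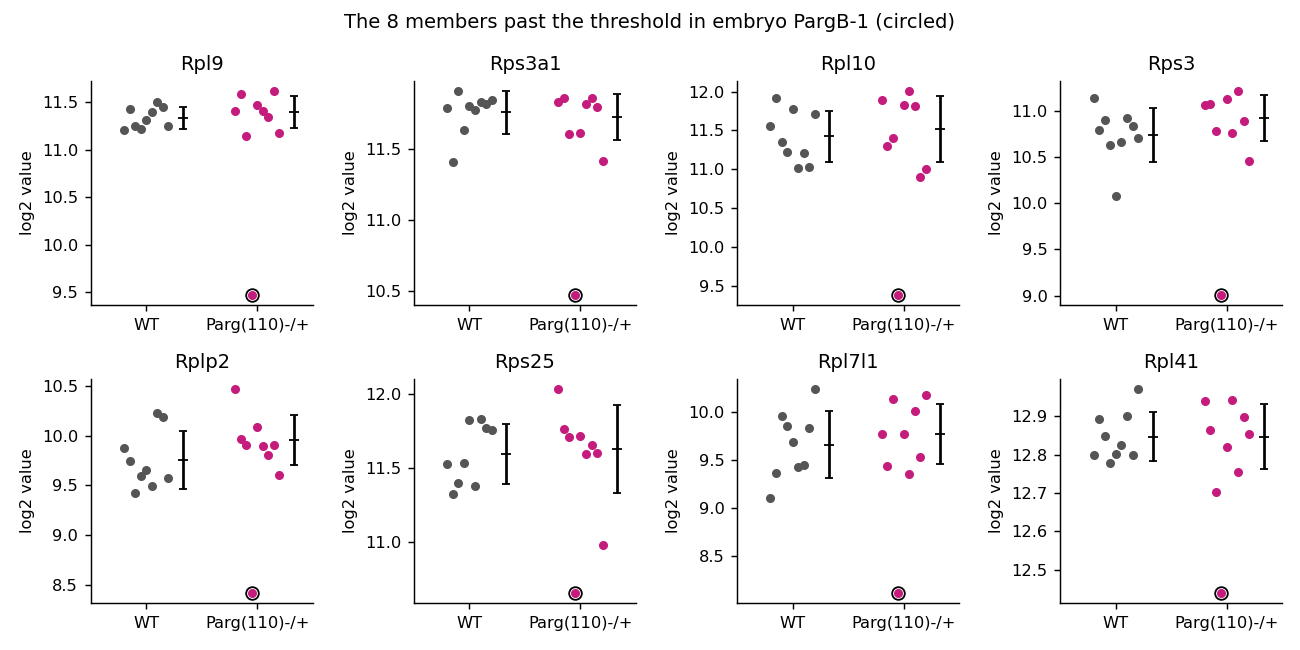
Log2 values (y axis, a scale of its own in each panel) of the 8 members that passed the test in PargB-1, 1 point per embryo, 9 WT in grey and 9 Parg(110)-/+ in pink, with PargB-1 circled. Bars give the mean and SD of the WT embryos and of the 8 Parg(110)-/+ embryos other than PargB-1, and PargB-1 lies below all other points in each panel, from 8.12 for Rpl7l1 to 12.44 for Rpl41.

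The median difference in PargB-1 was larger in members of lower level, whose SD over the embryos was larger too. The 18 members with a mean of log2 12 or more had a median difference of -0.25, and 17 of them were lower. The 24 members between log2 11 and 12 had a median of -0.35, and the 19 below 11 a median of -0.57. The median SD over the 18 embryos was 0.16, 0.28 and 0.43 in the same order. All probe sets of the same levels had medians of -0.03, -0.03 and 0.04, with 57.4%, 52.9% and 45.5% of them lower. The part of the SD in this was not tested. The 6 members that were not lower were Rpl12 (1.03), Rpl29 (0.44), Rps27l (0.24), Rps28 (0.15), Rplp0 (0.14) and Rps2 (0.14), and none of them passed. The start window did not divide the members: those with the pyrimidine run had a median of -0.37 and those without it -0.37. Of the 8 members that fell, 1, Rplp2, carries the run shown above, and those with CCGGAAG had a median of -0.36, those without it -0.38.

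Other embryos deviated less. The median difference of the members from WT lay between -0.14 and 0.17 in the other 8 Parg(110)-/+ embryos. For single WT embryos against the remaining 8 it lay between -0.18 and 0.26. Of all probe sets, 50.2% were lower in PargC-3 and 67.9% in WT2-1, and of bright ones 49.4% and 61.1%. In PargC-3, 49 of 61 members were lower, and Rpl38, a large subunit protein known for the translation of Hox mRNAs, fell alone (1.64% of members, against 0.843% of all probe sets). It measured 11.04 there, against 11.95 to 12.28 in WT and 11.91 to 12.52 in the other Parg(110)-/+ embryos (-1.07 ± 0.15, SE, limma, adjusted p = 0.0128). Its other 3 bright probe sets had an r of 0.999 with it. In WT2-1, 54 of 61 members were lower, and Rpl8 fell (9.69, -1.25 ± 0.21, SE, adjusted p = 0.0421), where 0.93% of all probe sets passed. In WT1-1, Rpl32l, a paralog of Rpl32, rose (8.35, 1.60 ± 0.27, SE, adjusted p = 0.0448), where 0.732% of all probe sets passed. WT3-1 was the highest embryo in 16 members (26.2%), against 4.98% of all and 7.11% of bright probe sets. Single calls therefore arose among WT embryos as well.

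Other gene lists moved with the members over the embryos. The score of the 77 mitochondrial ribosomal proteins, which build the separate ribosome of the mitochondrion, followed that of the 61 members with a Pearson r of 0.797 (rho 0.763), and 0.756 without PargB-1. Markers of the 2-cell stage, such as Zfp352, Tcstv3 and genes of the Usp17l and Tdpoz families, which are on for a short time, ran the other way, with r = -0.755 (rho -0.631) and -0.603 without PargB-1. Maternal oocyte transcripts gave -0.684 (rho -0.635) and -0.549 without PargB-1. With PargB-1 and WT2-1, the embryos farthest from the median, both left out, r was 0.742 for the mitochondrial list, -0.498 for the 2-cell list and -0.378 for the maternal list. The array median gave 0.04, and the mean of all probe sets above log2 11 gave 0.861. Those 1551 probe sets include 42 of the members, so this value partly sets the members against themselves. These 18 points share an array's normalisation and cDNA, 7 lists or measures were set against the score, and no p is attached.

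**Figure D5:**
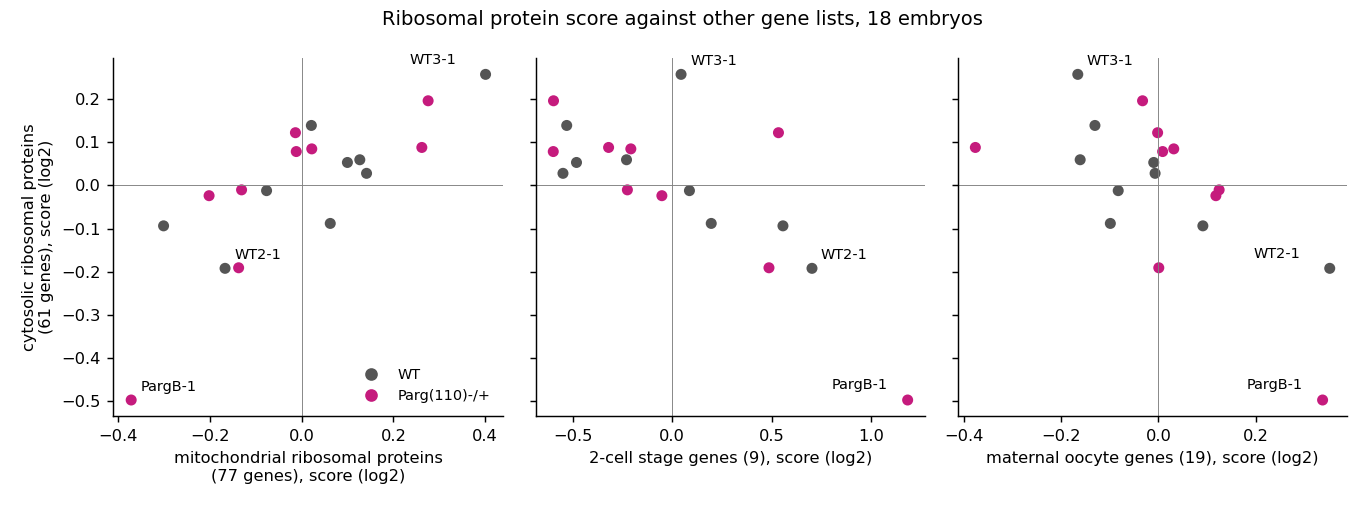
Score of the 61 members (y axis) against the scores of mitochondrial ribosomal proteins, 2-cell stage genes and maternal oocyte genes (x axes), all in log2 units, 1 point per embryo, WT in grey and Parg(110)-/+ in pink. PargB-1 has the lowest member score (-0.50), the lowest mitochondrial score (-0.37) and the highest 2-cell score (1.18).

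In PargB-1 these lists stood at the ends of their ranges. Its 2-cell score was 1.18, the highest of all embryos (WT -0.55 to 0.70), and 9 of 9 measured markers were higher than in WT, among which Usp17la rose (3.08 ± 0.26, SE, limma, adjusted p = 0.000221). Usp17la was not bright (median 4.54), and another embryo was higher in it, at 8.07 against 7.63 in PargB-1. The maternal score of PargB-1 was 0.34 (WT -0.17 to 0.35), with 18 of 19 higher. Of the 77 mitochondrial ribosomal proteins, 58 were lower, with a median of -0.29, none fell and Mrpl52 rose (1.53 ± 0.28, SE, adjusted p = 0.0293). Scores of cumulus and oviduct (0.06), blood (0.02) and spermatid markers (0.08) lay within the ranges of the other embryos. The part of these lists in the low values of the members was not tested.

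Genes tied to the members by function gave these values. Of 16 measured mRNAs that also carry a TOP tract, such as elongation factors, 9 were lower between genotypes, none passed and the median was -0.04. In PargB-1, 11 of the 16 were lower, with a median of -0.05, and over the 18 embryos their score had an r of 0.266 with that of the members. Of 15 measured regulators of TOP mRNAs, 6 were lower and 9 higher between genotypes, with a median of 0.03, and none passed. Rptor, with the smallest p among them, differed by 0.20 ± 0.07 (SE, limma, adjusted p = 0.398). Larp1, which binds the TOP tract, had 9.99 ± 0.35 in Parg(110)-/+ and 10.25 ± 0.26 (SD, n = 9 each) in WT embryos. Its difference was -0.27 ± 0.14 (SE, limma, adjusted p = 0.503). In PargB-1, 13 of these 15 were lower, and 2 of them fell: Larp1 (-1.11 ± 0.26, SE, adjusted p = 0.0866) and Tsc1, an inhibitor of mTOR signalling (-1.98 ± 0.43, SE, adjusted p = 0.0647). Of 14 chaperones and importers of ribosomal proteins, 10 were lower in PargB-1, and 1 of them, the importer Ipo5, fell by 0.92 (SE 0.12, adjusted p = 0.00427), while between genotypes it differed by -0.23 ± 0.10 (adjusted p = 0.450). Between genotypes 6 of these 14 were lower and 8 higher, with a median of 0.03. Fau is left out by the symbol rule, and its product is cut to the small subunit protein Rps30. It differed by 0.17 ± 0.16 between genotypes (SE, limma, adjusted p = 0.688) and by 0.19 in PargB-1.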

How the data were processed

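RNA of single 2-cell embryos was amplified (WT-Ovation One-Direct, NuGen) and profiled on Affymetrix Mouse Gene 1.0 ST arrays. The deposited values are log2 levels that the authors made with RMA (background correction, quantile normalisation and summarisation into probe sets) in Partek, with versions not given in the sources used here. Quantile normalisation can lessen a change that most genes share. The annotation names 1 gene for 21780 probe sets, several for 1605 and none for 5430 of the 28815.

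Models were fitted over all probe sets with limma 3.58.1 under R 4.3.3 (lmFit and eBayes, two-sided). P-values were adjusted by Benjamini-Hochberg, and adjusted values under 0.1 counted as passing, as in the methods of the study. The genotype, family and single embryo comparisons used the embryos given with each result, and the script was tested on simulated data. Labels name the embryos as separate samples, and precision is limited by how many embryos and fathers there were. Depth has no counterpart on arrays.

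The members and lists were chosen with earlier results of these data known. Members named are the 8 with the smallest genotype p, those called in a family or single embryo, and the 3 largest and smallest SDs. The paralogs and members with known roles are named too. Rpl12, Rpl29, Rpl30, Rps15, Rps18, Rpl23a, Rps28, Tsc1 and Mrpl52 were named after their values were seen. Alternatives covered scaling, father, left-out embryos and fathers, probe set choice, paralogs, dim genes, the methods' one-way ANOVA and the source of the spread.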

Additional observations from a re-analysis of the deposited data

Results flagged for a closer look

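Of 66 sets of 9 embryos tested for a lone extreme value, 14 had one, and 9 of the 14 were PargB-1. The 66 came from the named members and the scores, and some of those genes were named for a call in a single embryo or a large SD, so the 14 cannot be read against the about 1 in 20 sets that chance gives. Over all 61 members 17 of 122 sets had one, 5 in WT and 12 in Parg(110)-/+ embryos, and 11 of the 17 were PargB-1; members of an embryo are not independent. Among Parg(110)-/+ embryos, PargB-1 lay far below the others for Rpl9 (log2 9.47), Rps3a1 (10.47), Rps3 (9.01), Rpl7l1 (8.12), Rpl10 (9.38), Rplp2 (8.42), Rpl14 (6.92) and Rpl41 (12.44), and for the large subunit score (-0.54). PargC-3 lay far below the others for Rpl38 (11.04). Among WT embryos, WT2-1 lay far below the others for Rpl8 (9.69) and Rpl39l (9.26), WT2-2 for Rps3 (10.08), and WT1-1 far above them for Rpl32l (8.35). Rps3 was thus low in 1 embryo of each genotype.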

How the results depend on the processing

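Of 485 values recomputed under the alternatives, 479 stayed on their side of the test, within 1.5 times a count, or within the spread between WT embryos. That spread let signs turn in 15 of 96 median differences of the members or a subunit and in 3 of 29 differences between the subunit scores. Members lower in Parg(110)-/+ embryos numbered 35, and 21 to 43 when each embryo was left out, with 21 without PargB-1. The median difference of all members turned above 0 in 5 settings, to between 0.0007 and 0.05, the highest without PargB-1. Probe sets called between genotypes numbered 0, with 0 to 1 when each embryo was left out (1 without PargB-1 and 1 without WT1-3) and 3 without father WT1, and no member was among them. At an unadjusted p under 0.05, 3018 probe sets passed, and 3158 by the methods' one-way ANOVA. In PargB-1, 8 members fell, and 5 to 7 when each WT embryo was left out, with 5 without WT1-1. With equal array medians 9 fell, after a second quantile normalisation 7, and with the spread of all embryos 9. Rpl7a, at -0.09, turned to 0.0168 with the mean of its probe sets. The causes were not tested. No paired analysis was possible because replicates of the genotypes share no numbers and each father has embryos of 1 genotype; the father as a random block (consensus correlation -0.02) changed no call. Single-embryo calls have no replicate, and dim signals near background are compressed.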

Other observations

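The paralogs could be set beside the standard members. Over the 7 paralogs the score per embryo ran from -0.21 to 0.44 in WT (SD 0.23) and from -0.93 to 0.35 in Parg(110)-/+ embryos (SD 0.40), against -0.20 to 0.28 and -0.44 to 0.19 over the 54 standard members. PargB-1 was the lowest embryo for both. Between genotypes the score of the paralogs differed by -0.05, and by 0.06 without PargB-1.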
